A study of Mus musculus with 12 samples.

Results

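The core pluripotency factors of mouse embryonic stem cells (ESCs) considered here were 5 genes, Pou5f1, Sox2, Nanog, Sall4 and Utf1. They were chosen by name, because they are known to act in both the naive and the primed state of pluripotency. The choice used no measured value as a criterion, although earlier results of these data were known when it was made. Each name was looked up in the transcript annotation that the authors assembled, among transcripts equal to an annotated transcript or sharing a splice junction with it. Each of the 5 names fell in 1 locus, so that the members made up 5 of the 80012 loci counted, and all 5 were among the 20212 loci tested.

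Poly(A) RNA had been sequenced from 12 libraries of an Eomes reporter ESC line labelled C57BL/6, in which an EGFP cassette sits at the start of the endogenous Eomes gene. The line is single, and all 3 groups carry the reporter. ESCs were collected at day 0 from cultures with leukemia inhibitory factor and serum on a layer of mouse embryonic fibroblasts (feeder cells). The other groups came from embryoid bodies at day 3 of hanging drop differentiation, sorted by EGFP into Eomes-negative (Eo-) and Eomes-positive (Eo+) cells. Each group had 4 libraries, with the replicate numbers 1, 2, 5 and 6, and the counts per library ranged from 648413022 to 837308168, at which 3 counts amount to at most 0.00470 CPM. Feeder RNA is therefore possible in the ESC libraries, and because the libraries are bulk RNA, fewer cells of a type and less RNA per cell cannot be told apart.

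OCT4 (the protein of Pou5f1) and SOX2 are transcription factors that bind side by side on a composite DNA element, made of an octamer-like motif and a SOX motif, at many genes active in pluripotent cells, their own genes included. NANOG, a homeodomain factor, and SALL4, a zinc finger factor that also recruits histone deacetylase complexes, occupy many of the same sites, and Utf1 encodes a chromatin-associated protein and is itself a classical target of OCT4 and SOX2. In the embryo, Nanog is reactivated in the posterior epiblast around gastrulation, Pou5f1 persists into the primitive streak, and Sox2 becomes restricted to the anterior neural side.

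The 250 bases upstream of the RefSeq start of a member are shown first, because the composite element is the sequence through which these factors regulate each other. RefSeq windows were given for Pou5f1, Sox2, Nanog and Utf1 in GRCm38.p6 and not for Sall4. The sequences run 5′ to 3′ on the strand of the gene, the plus strand for all of them, and capitals mark a match, on either strand, to the octamer ATGCAAAT, the octamer without its last base (ATGCAAA), the SOX motif CATTGT, or the composite element, taken as CATTGT, any base and ATGCAAA in a row. These motifs overlap, since the composite holds CATTGT and ATGCAAA, and ATGCAAAT holds ATGCAAA. Where a gene had more than 1 window, the one starting farthest upstream is printed.
Nanog, chr6:122707239-122707488: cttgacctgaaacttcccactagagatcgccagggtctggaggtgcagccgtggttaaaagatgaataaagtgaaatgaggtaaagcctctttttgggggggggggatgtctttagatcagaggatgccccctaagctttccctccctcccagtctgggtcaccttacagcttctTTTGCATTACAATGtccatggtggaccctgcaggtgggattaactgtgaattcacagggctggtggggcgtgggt
Sox2, chr3:34649745-34649994: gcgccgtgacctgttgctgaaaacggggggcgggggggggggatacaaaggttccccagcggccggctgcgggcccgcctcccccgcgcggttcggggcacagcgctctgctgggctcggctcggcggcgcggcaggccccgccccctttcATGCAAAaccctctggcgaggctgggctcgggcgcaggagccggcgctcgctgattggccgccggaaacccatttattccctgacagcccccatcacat
Pou5f1, chr17:35505782-35506031: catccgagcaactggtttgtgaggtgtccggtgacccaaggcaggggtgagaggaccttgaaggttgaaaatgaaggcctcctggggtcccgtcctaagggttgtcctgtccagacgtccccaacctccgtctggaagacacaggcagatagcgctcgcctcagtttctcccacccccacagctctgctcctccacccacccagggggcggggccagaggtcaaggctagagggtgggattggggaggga
Utf1, chr7:139943606-139943855: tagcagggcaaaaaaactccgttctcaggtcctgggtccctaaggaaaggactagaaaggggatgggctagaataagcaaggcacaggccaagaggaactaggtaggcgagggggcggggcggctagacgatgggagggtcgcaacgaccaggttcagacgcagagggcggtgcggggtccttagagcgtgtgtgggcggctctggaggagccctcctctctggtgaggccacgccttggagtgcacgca

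Nanog held the whole composite on the minus strand at -75 to -62 relative to its start, as TTTGCATTACAATG. The composite was found in 2 of 32851 windows of this length, both of them Nanog windows, so that 1 of 27025 genes had it. Sox2 held ATGCAAA at -99 to -93, a string present in 4.12% of all windows. Pou5f1 and Utf1 had none of these strings in the printed window. The full octamer stood in 1.60% and CATTGT in 10.7% of windows. Among the target genes described below, Zfp42 held the octamer at -186 to -179, Fgf4 and Spp1 had no match, and Fbxo15 and Lefty1 had no window.

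Pou5f1 (XLOC_030258, ENSMUSG00000024406) was counted at chromosome 17, 35506018 to 35510772 (mm10, plus strand), over the 6 transcripts of the gene alone. Utf1 (XLOC_063256, ENSMUSG00000047751) was counted at chromosome 7, 139943789 to 139945112 (plus strand), over 1 transcript. Sall4 (XLOC_042821, ENSMUSG00000027547) was counted at chromosome 2, 168748090 to 168767943 (minus strand), and the annotated gene made up 92.34% of the exon length of its locus. These 3 loci therefore hold essentially the named gene.

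The loci of Sox2 and Nanog were wider than the genes. The Sox2 locus (XLOC_043472, ENSMUSG00000074637) ran from 34104438 to 34682619 on the plus strand of chromosome 3, while the single-exon gene lies at 34650405 to 34652461. Of its 35 transcripts, 29 belonged to Sox2ot, the long noncoding RNA within whose intron Sox2 lies on the same strand, 2 to Sox2, and the remaining 4 to Mir1897 and 3 predicted genes. The Sox2 gene contributed 13.69% of the exon length of this locus, and its counts cannot be split from those of Sox2ot. All values given for Sox2 below are those of the joint locus. The Nanog locus (XLOC_058283, ENSMUSG00000012396) ran from 122707489 to 122931573 on the plus strand of chromosome 6, while the gene ends at 122714633. Besides 3 annotated transcripts it held 2 assembled ones that begin at Nanog and end 188.03 and 224.08 kb downstream, and 1 unnamed single-exon transcript, so that the gene made up 46.4% of the exon length. Nanog also shares at least 95% identity over at least 100 bases with transcripts of 61 other genes, the longest match being 245 bases of the processed pseudogene Nanog-ps1, and reads that map to several places were left uncounted.

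**Figure D1:**
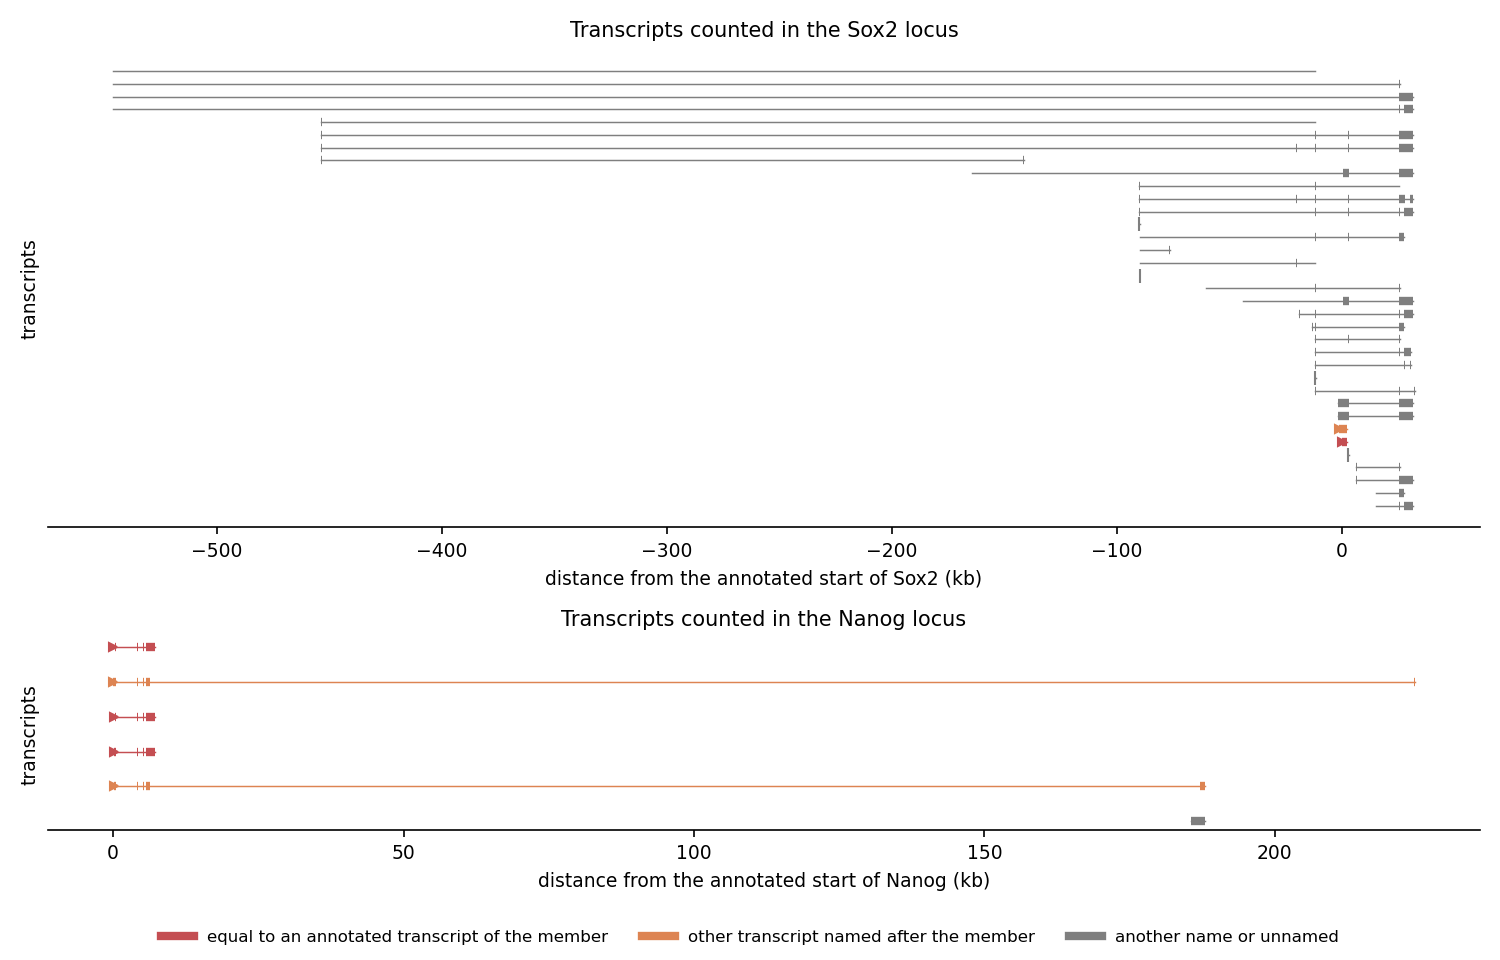
Transcripts in the Sox2 (top) and Nanog (bottom) loci against the distance from the annotated start of the gene in kb; each line is a transcript, thick parts are exons, short upright marks are small exons or transcripts. The 29 Sox2ot transcripts, in grey, lie between -545.97 and 32.21 kb of the start of Sox2, and 2 transcripts named Nanog leave the gene and end 188.03 and 224.08 kb away.

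Levels are given first in CPM, counts scaled to a common library size with TMM factors, by replicates 1, 2, 5 and 6. Pou5f1 was at 1165, 1499, 1042 and 1281 CPM in ESC, at 828, 1198, 1006 and 1086 CPM in Eo-, and at 319, 634, 575 and 540 CPM in Eo+ libraries. The ESC and Eo- libraries overlapped, and all 4 Eo+ libraries lay below both. Mean levels were 1247 ± 194, 1030 ± 156 and 517 ± 138 CPM (SD, n = 4 each), so that Eo+ cells kept 41.5% of the ESC mean.

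Sox2, whose counts include Sox2ot, was at 408, 307, 328 and 384 CPM in ESC, at 148, 148, 171 and 130 CPM in Eo-, and at 18.7, 18.5, 42.0 and 19.8 CPM in Eo+ libraries. The 3 groups did not overlap, and Eo+ replicate 5 stood above the other Eo+ libraries. The means were 357 ± 47.2, 149 ± 16.9 and 24.8 ± 11.5 CPM, and the Eo+ mean was 19.0 ± 0.667 CPM without replicate 5 (n = 3).

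Nanog was at 332, 475, 467 and 569 CPM in ESC, at 177, 174, 172 and 155 CPM in Eo-, and at 90.0, 117, 176 and 95.7 CPM in Eo+ libraries. Both sorted fractions lay below all ESC libraries, while replicate 5 put Eo+ within the range of Eo-. The means were 460.5 ± 97.4, 170 ± 10.2 and 120 ± 39.1 CPM, and the Eo+ mean was 101 ± 14.4 CPM without replicate 5.

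Sall4 was at 313, 284, 290 and 273 CPM in ESC, at 268, 270, 277 and 278 CPM in Eo-, and at 311, 427, 346 and 386 CPM in Eo+ libraries. ESC and Eo- libraries overlapped, the Eo+ libraries lay above all Eo- libraries, and the lowest Eo+ library fell just below the highest ESC library. The means were 290 ± 16.9, 273 ± 4.68 and 367 ± 50.3 CPM.

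Utf1 was at 294, 311, 261 and 283 CPM in ESC, at 209, 337, 320.5 and 281 CPM in Eo-, and at 6.87, 8.37, 26.5 and 6.49 CPM in Eo+ libraries. ESC and Eo- libraries overlapped fully, and the Eo+ libraries were far below, again with replicate 5 the highest. The means were 287 ± 21.0, 287 ± 56.8 and 12.1 ± 9.68 CPM, and Eo+ cells kept 4.203% of the ESC mean. Without replicate 5 the Eo+ mean was 7.24 ± 0.993 CPM (n = 3).

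**Figure D2:**
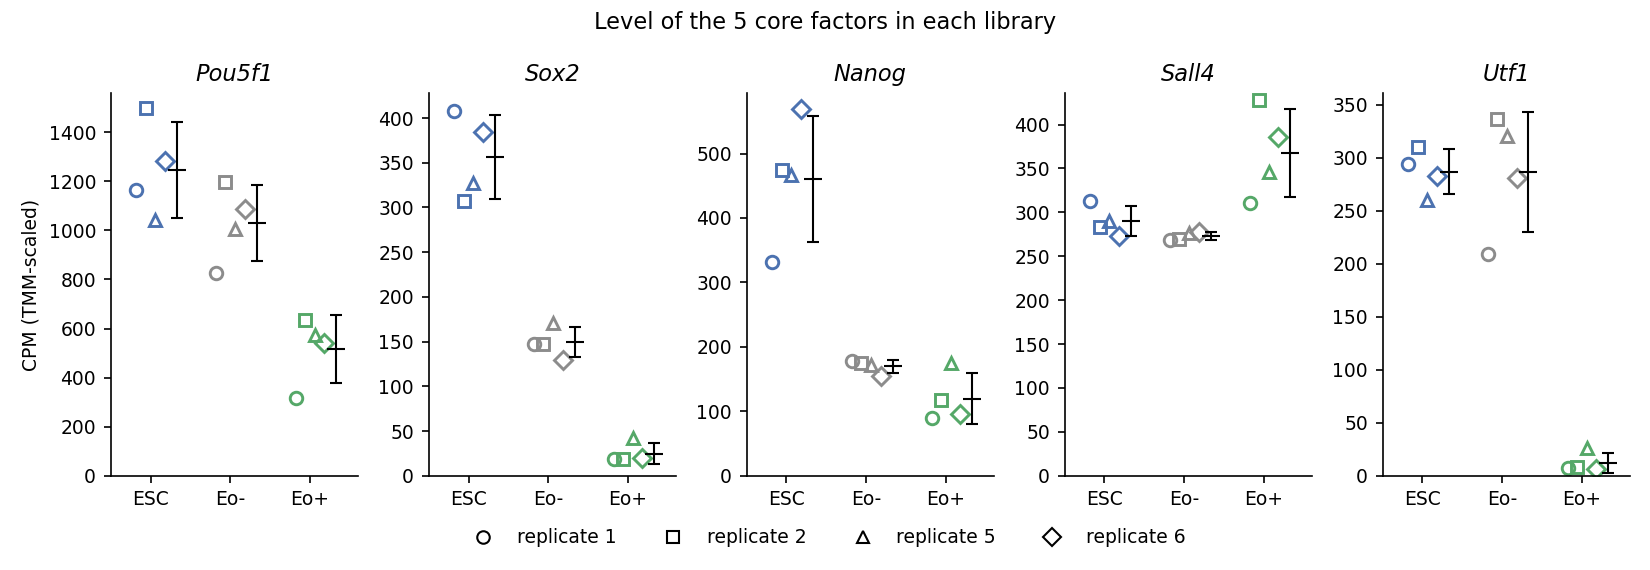
CPM of each core factor (vertical axes, linear from 0, each panel with its own scale) in the 12 libraries by group, with symbols for replicate numbers and black bars for the mean ± SD of 4 libraries. Sall4 is the only panel in which Eo+ stands highest (mean 367 CPM), and replicate 5, the triangle, is the highest Eo+ library for Sox2 (42.0), Nanog (176) and Utf1 (26.5).

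Differences between groups were tested with limma on all 20212 loci, with p-values adjusted over all of them. In Eo- vs ESC, 2 of the 5 members were called, both lower, where 57.3% of all loci were called, 29.4% lower and 27.9% higher. The libraries of these 2 members did not overlap, as at 51.7% of loci. Nanog fell by 1.41 ± 0.18 (SE) on the log2 scale in Eo- cells, a 2.66-fold fall, with an adjusted p of 1.70e-05 from limma. Sox2 fell by 1.26 ± 0.16, a 2.39-fold fall (adjusted p = 1.72e-05). The remaining members did not pass: the log2 change was -0.28 for Pou5f1 (95% interval -0.66 to 0.11, adjusted p = 0.202), -0.09 for Sall4 (-0.27 to 0.10, adjusted p = 0.404) and -0.02 for Utf1 (-0.46 to 0.41, adjusted p = 0.928). For Utf1 the interval allows a fold of 0.728 to 1.33, and for Sall4 one of 0.831 to 1.07.

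In Eo+ vs ESC all 5 members were called, 4 lower and 1 higher, where 66.7% of all loci were called, 33.8% lower and 32.9% higher. Utf1 fell most, by 4.85 ± 0.31 on the log2 scale (28.8-fold, adjusted p = 1.34e-08 from limma). Sox2 fell by 3.94 ± 0.20 (15.3-fold, adjusted p = 1.76e-09), Nanog by 1.97 ± 0.19 (3.91-fold, adjusted p = 5.08e-07) and Pou5f1 by 1.31 ± 0.18 (2.47-fold, adjusted p = 2.37e-05). Sall4 rose by 0.33 ± 0.08 (1.26-fold, adjusted p = 0.00298), although its ESC and Eo+ libraries overlapped. The libraries of 4 members did not overlap, an arrangement seen at 59.8% of loci.

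The Eo+ vs Eo- comparison, between fractions of the same cultures, also called all 5 members, 4 lower and 1 higher, against 43.4% of all loci, 22.2% lower and 21.2% higher. Utf1 was 28.3-fold lower in Eo+ (log2 change -4.82 ± 0.31, adjusted p = 1.66e-07 from limma), and only 1.26% of all tested loci had a lower value. Sox2 was 6.42-fold lower (-2.68 ± 0.20, adjusted p = 5.94e-07) and Pou5f1 2.04-fold lower (-1.03 ± 0.19, adjusted p = 0.000538). Sall4 was 1.33-fold higher (0.42 ± 0.08, adjusted p = 0.00118). Nanog was 1.47-fold lower (-0.55 ± 0.19, adjusted p = 0.0326), and this was the least stable call: it was lost in 6 of the 12 fits that left out 1 library, with adjusted p from 0.00230 without Eo+ replicate 5 to 0.108 without Eo+ replicate 1, and with no filter on low values (adjusted p = 0.0592). The libraries of the other 4 members did not overlap, as at 42.8% of loci.

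Within the pairs of libraries that carry the same number, the Eo+ level of Utf1 was 3.28%, 2.49%, 8.28% and 2.31% of the Eo- level for replicates 1, 2, 5 and 6. For Sox2 it was 12.7%, 12.5%, 24.6% and 15.2%, and for Pou5f1 38.5%, 52.9%, 57.1% and 49.7%. Nanog in Eo+ was at 50.7%, 67.3% and 61.8% of Eo- in replicates 1, 2 and 6 and at 102% in replicate 5. Sall4 was higher in Eo+ in 4 of 4 pairs, at 116%, 158%, 125% and 139%. All 4 pairs thus had the same direction for each member except Nanog, and replicate 5 had the smallest loss of all 4 falling members.

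**Figure D3:**
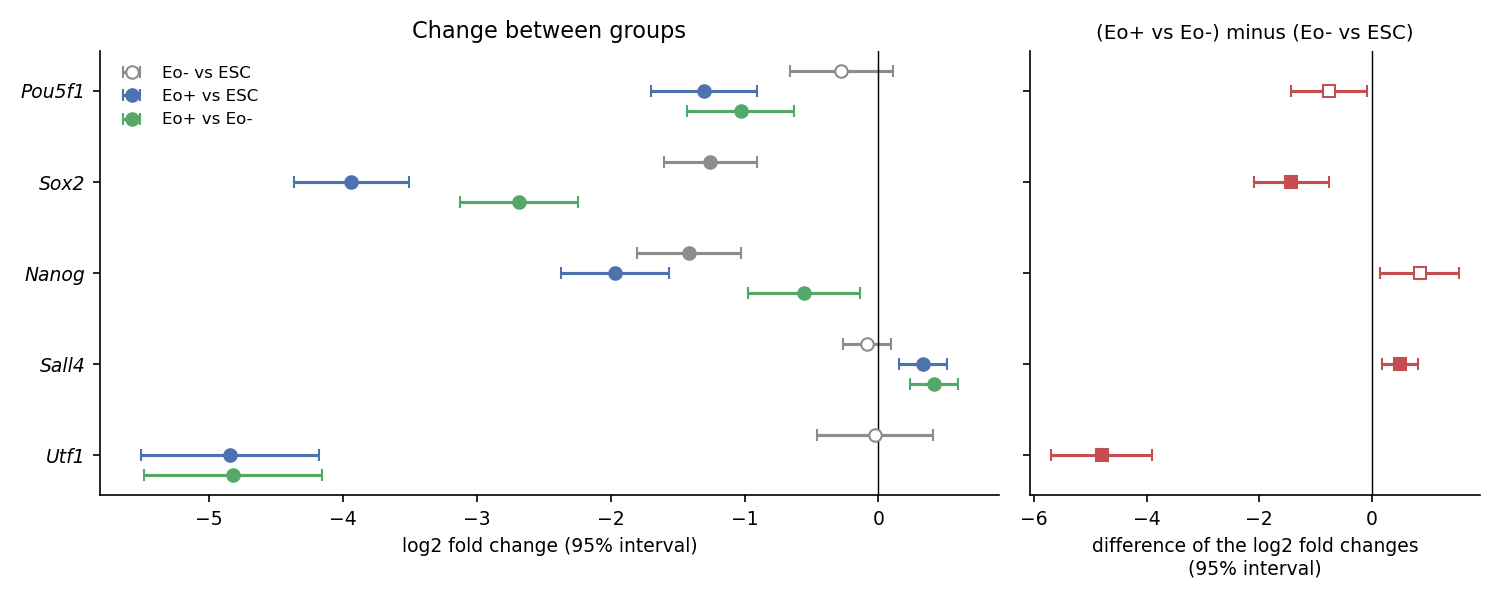
Left, log2 fold changes of the 5 members with 95% intervals in 3 comparisons; right, the Eo+ vs Eo- change minus the Eo- vs ESC change; filled symbols passed an adjusted p of 0.05 in limma and open symbols did not. Utf1 is near 0 in Eo- vs ESC (-0.02) and at -4.82 in Eo+ vs Eo-, while Nanog lies at -1.41 and -0.55.

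Whether a member changed by different amounts in both contrasts was tested as the Eo+ vs Eo- change minus the Eo- vs ESC change, which is negative where most of a fall lies between Eo- and Eo+. Of the 5 members, 3 passed in this test, where 34.5% of all loci did. The difference was -4.80 ± 0.42 for Utf1 (adjusted p = 5.07e-06 from limma) and -1.43 ± 0.31 for Sox2 (adjusted p = 0.00319). It was 0.50 ± 0.15 for Sall4 (adjusted p = 0.0166), whose level was higher in Eo+ alone. Pou5f1, at -0.75 ± 0.31 (adjusted p = 0.0783), and Nanog, at 0.86 ± 0.33 (adjusted p = 0.0560), had opposite signs and did not pass. With the replicate number as a block both passed (-0.75 for Pou5f1 and 0.87 for Nanog). The study's methods describe differentiation sets that span all 3 groups, which the numbers are taken to mark, and the deviations of ESC libraries correlated with those of same-numbered Eo- and Eo+ libraries at -0.06 to 0.18. Pou5f1 also passed with library totals (-0.87) and without Eo+ replicate 2 (-0.87) or Eo- replicate 1 (-0.96). Nanog also passed with edgeR (0.94), DESeq2 (0.99) and its size factors (0.91), and without ESC replicate 1 (1.01), Eo+ replicate 1 (0.98) or Eo+ replicate 6 (0.94).

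Ratios between 2 members were then compared, since a ratio of counts within a library does not depend on how libraries are scaled. All 10 pairs were tested in 3 comparisons by a two-sided exact permutation test of the log2 ratios (4 against 4 libraries, smallest possible p = 0.0286), adjusted over 30 tests. Of these, 25 passed, each with an adjusted p of 0.0343, the smallest reached, and each with no overlap between the groups. By comparison, 7 of 10 pairs passed between Eo- and ESC, 9 between Eo+ and ESC and 9 between Eo+ and Eo-. Pairs of other loci were not tested, so whether these counts are unusual is not known. Among single loci, 51.7%, 59.8% and 42.8% did not overlap in these comparisons, and the 10 pairs share their members.

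The ratio of Pou5f1 to Sox2 counts rose through the groups, from 2.86 to 4.88 in ESC, to 5.60 to 8.36 in Eo-, and 13.7 to 34.3 in Eo+ libraries. Its log2 value was 2.63 higher in Eo+ than in ESC and 1.65 higher than in Eo- (exact permutation test, adjusted p = 0.0343 for both). In Eo+ libraries Pou5f1 had thus fallen by less than the Sox2 locus. The ratio of Sox2 to Nanog, which both fell in Eo- cells, was not found to differ between Eo- and ESC (difference 0.16, exact permutation test, adjusted p = 0.532), and was 4.36-fold lower in Eo+ than in Eo- libraries, at 0.158 to 0.239 against 0.833 to 0.994.

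Sall4 and Utf1 counts stood near 1 to 1 in ESC (0.913 to 1.11) and Eo- libraries (0.802 to 1.28), and the ratio was 13.0 to 59.4 in Eo+ libraries. This was the largest of the 30 differences in the ratio tests, 5.24 on the log2 scale in Eo+ vs Eo- (exact permutation test, adjusted p = 0.0343). Pou5f1 to Nanog was the only pair whose Eo+ libraries overlapped both other groups: its log2 ratio was 1.45 ± 0.33 in ESC, 2.59 ± 0.27 in Eo- and 2.12 ± 0.41 in Eo+ libraries (SD, n = 4 each), with adjusted p = 0.0659 for Eo+ vs ESC and 0.127 for Eo+ vs Eo- by the same exact permutation test, which does not use the numbers. Within each of the 4 sets of libraries with the same number, however, the Eo+ ratio lay above that of ESC and below that of Eo-, a description for which no paired test was made. In Eo- vs ESC it rose by 1.14 (exact permutation test, adjusted p = 0.0343). Pou5f1 and Utf1 also parted slightly in Eo- cells, where the log2 ratio of Pou5f1 to Utf1 was 0.25 lower than in ESC, without overlap, although neither gene alone passed the test.

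**Figure D4:**
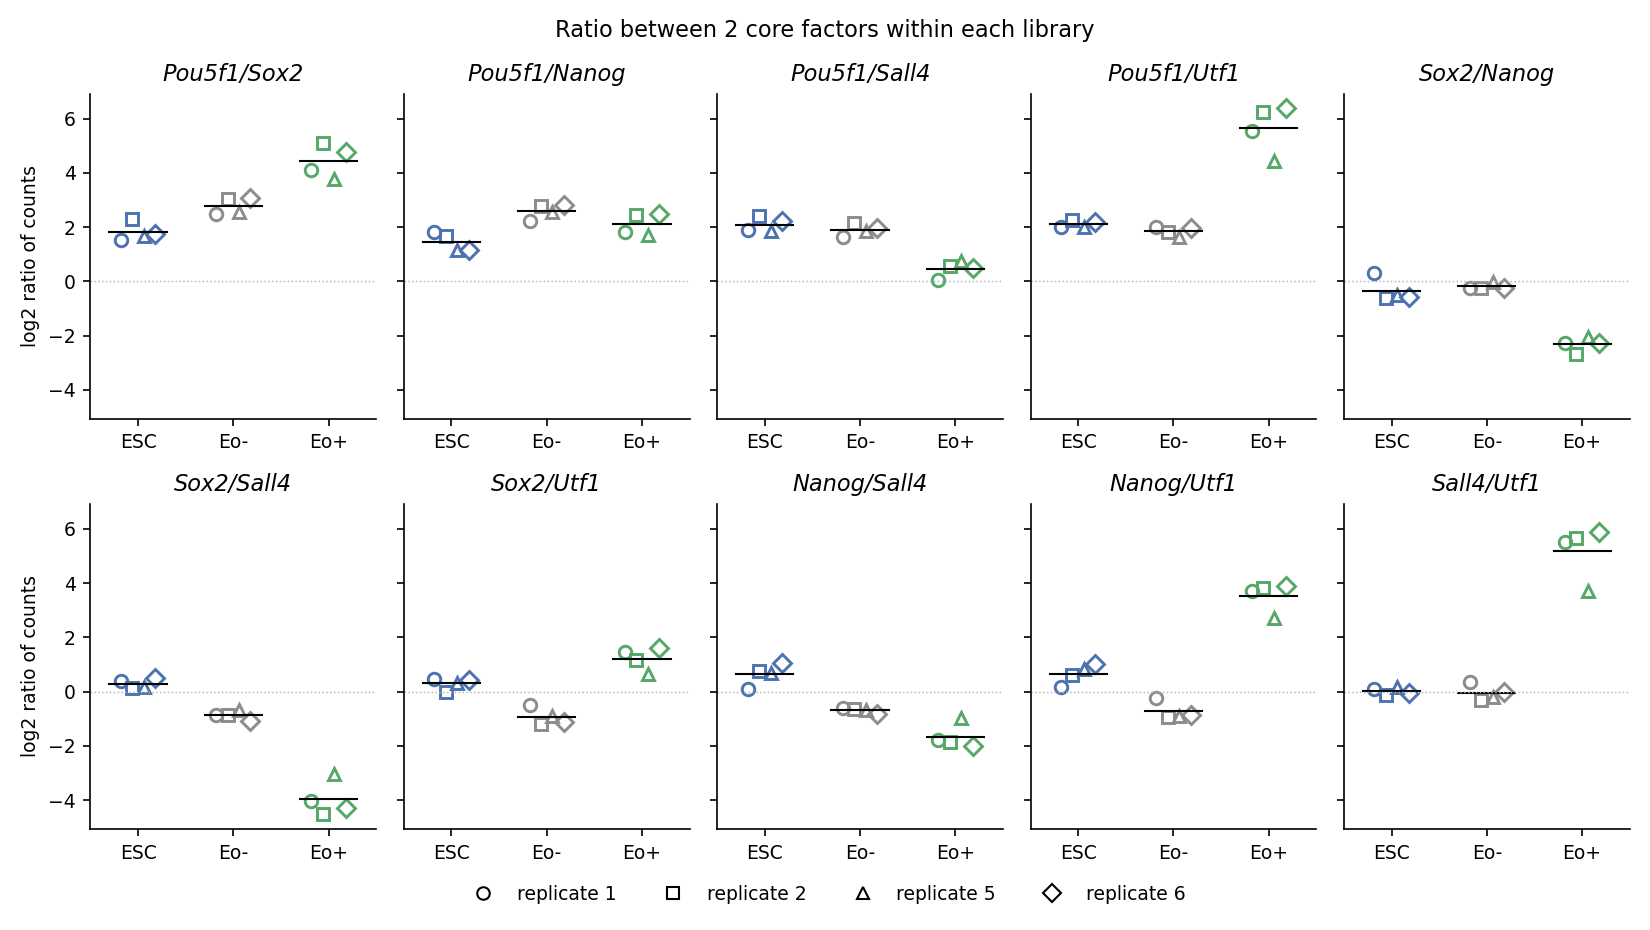
Log2 ratio of the counts of 2 members in each library (vertical axis, shared) for all 10 pairs, by group, with symbols for replicate numbers and a line at the mean. The Sall4/Utf1 ratio lies near 0 in ESC and Eo- and at a mean of 5.19 in Eo+, and the Pou5f1/Nanog groups overlap between Eo+ and the others.

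Levels were compared between members per kb of exon (FPKM), over the exon length of the whole locus. In ESC libraries the order was Pou5f1 (555 ± 86.5 FPKM, SD, n = 4), Utf1 (234 ± 17.1), Nanog (95.3 ± 20.2), Sall4 (48.4 ± 2.82) and Sox2 (23.7 ± 3.14), with no overlap between neighbours. Eo- libraries had the same order except that Sall4 (45.6 ± 0.780 FPKM) stood above Nanog (35.1 ± 2.10). In Eo+ libraries Pou5f1 still led (230 ± 61.3 FPKM), followed by Sall4 (61.3 ± 8.39), Nanog (24.8 ± 8.09), Utf1 (9.83 ± 7.89) and Sox2 (1.65 ± 0.766), and the ranges of Nanog and Utf1 overlapped.

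This order rests on the length taken for the 2 wide loci. Over the exon length of the gene alone, which assigns every count of the locus to the gene, the FPKM of Sox2 was 173 ± 22.9 in ESC, 72.5 ± 8.20 in Eo- and 12.04 ± 5.60 in Eo+ libraries, and that of Nanog 205 ± 43.5, 75.7 ± 4.54 and 53.4 ± 17.4. Sox2 then stood above Sall4 in ESC and Eo- libraries and next to Utf1 in Eo+. On this scale Nanog overlapped Utf1 and Sox2 in ESC, Sox2 in Eo- and Sall4 in Eo+ libraries. Pou5f1 led in all 3 groups on both scales.

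The genes whose log2 CPM profile over the 12 libraries was closest to a member, each centred on its mean, were sought among 11275 protein-coding single-gene loci with a mean of at least 1 CPM. For Pou5f1 they were Fzd9, a Wnt receptor, Cacng7 and Ajuba, with root mean square differences of 0.14, 0.15 and 0.17. Sox2 was closest to Nrg4, C1s1 and Fmnl1 (0.20, 0.21 and 0.23), and Nanog to Oas1g, Oas1a and Enpp4 (0.22, 0.24 and 0.24), of which both Oas genes belong to the antiviral oligoadenylate synthetase family. Sall4 was closest to Suco, Mapk8 and Kif4 (0.08, 0.09 and 0.09). Utf1 had the largest distances, to Elavl3, Atcay and C77370 (0.42, 0.48 and 0.57), of which Elavl3 encodes a neuronal RNA-binding protein. The distance grows with the size of a change, so it does not rank closeness between members. Pearson correlations with the member were 0.973 to 0.994 for the genes closest to Utf1 and 0.911 to 0.923 for those closest to Sall4. No member was among the closest genes of another. The smallest distance between 2 members was 0.55, between Pou5f1 and Nanog, where 18.8% of the loci searched were nearer to Pou5f1 and 5.39% nearer to Nanog. Sox2 and Utf1 lay 0.92 apart, and only 0.399% of the loci were nearer to Utf1 and 3.44% nearer to Sox2.

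Genes known as targets of OCT4 and SOX2 were described next (Fgf4, Fbxo15, Lefty1, Spp1 and Zfp42). All 5 fell in both fractions against ESC, and in Eo- and Eo+ cells their median log2 change was -3.57 and -6.20, beside 0.02 and -0.01 over all loci, of which 29.4% and 33.8% fell. Their summed level was 1314 to 1693 CPM in ESC, 126 to 169 CPM in Eo- and 58.5 to 126 CPM in Eo+ libraries. In Eo- cells they thus stood far below ESC. Of the members, Sox2 and Nanog also fell there, 2.39-fold and 2.66-fold, while Pou5f1, Sall4 and Utf1, itself such a target, had not passed the test.

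Zfp42 (Rex1), a zinc finger marker of naive cells, went from 503 ± 71.6 to 42.6 ± 7.43 and 4.38 ± 0.459 CPM in ESC, Eo- and Eo+ libraries (log2 change in Eo- vs ESC -3.57 ± 0.13, adjusted p = 8.26e-10 from limma). Spp1, the secreted protein osteopontin, went from 436 ± 76.6 to 23.4 ± 4.82 and 1.63 ± 1.28 CPM, and Fbxo15, a ubiquitin ligase subunit, from 225 ± 31.5 to 18.2 ± 2.39 and 3.17 ± 1.05 CPM. Fgf4, the growth factor through which ESCs drive their own exit from the naive state, fell least in Eo- cells, from 108 ± 23.9 to 34.2 ± 2.10 CPM, and stood at 9.97 ± 5.96 CPM in Eo+. Lefty1, an inhibitor of Nodal signals, fell from 304 ± 43.3 to 32.9 ± 9.39 CPM and was higher in Eo+ than in Eo- cells, at 63.1 ± 31.6 CPM (log2 change 0.87 ± 0.28, adjusted p = 0.0204), a call lost without Eo- replicate 2 (0.69, adjusted p = 0.0711) or 6 (0.82, adjusted p = 0.0524).

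The paralogs of the members moved in several directions. Of 8 tested among 9 listed, 4 rose and 3 fell in Eo- cells against ESC, 2 rose and 4 fell in Eo+ cells against ESC, and 2 were higher and 5 lower in Eo+ than in Eo-. Over all loci 57.3%, 66.7% and 43.4% were called in these comparisons, so that 6 of 8 against ESC in Eo+ cells is near the share of all loci. Pou3f1, a POU factor of the epiblast and neural lineage, rose from 34.8 ± 4.45 to 88.0 ± 16.8 CPM in Eo- (log2 change 1.32 ± 0.20, adjusted p = 7.15e-05 from limma) and was 9.15 ± 5.20 CPM in Eo+. Sox3, the SoxB1 relative of Sox2, followed the same course, from 8.09 ± 1.94 to 32.1 ± 4.02 and 4.82 ± 3.0 CPM, and its log2 change in Eo- vs ESC was 2.00 ± 0.23 (adjusted p = 7.50e-06) while Sox2 fell. Sox1 fell from 1.22 ± 0.354 to 0.507 ± 0.161 and 0.0551 ± 0.0202 CPM, and Sox15, a SoxG factor able to pair with OCT4, from 18.2 ± 3.36 to 4.35 ± 1.03 and 0.789 ± 0.324 CPM. Pou2f1 (OCT1), the broadly expressed POU factor, stayed at 43.5 ± 3.89, 46.6 ± 4.71 and 44.9 ± 3.77 CPM and passed in no comparison. Pou3f2 was below the filter.

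Among the relatives of Sall4, Sall2 rose from 19.1 ± 3.46 to 125 ± 14.1 CPM in Eo- (log2 change 2.72 ± 0.14, adjusted p = 7.38e-09 from limma) and was 45.4 ± 5.84 CPM in Eo+. Sall3 rose from 12.6 ± 3.59 to 31.3 ± 8.05 and 57.4 ± 17.2 CPM. Sall1 was at 130 ± 28.1, 96.3 ± 6.23 and 138 ± 25.7 CPM and was higher in Eo+ than in Eo- (0.50 ± 0.16, adjusted p = 0.0181), as Sall4 was, but this call was lost without Eo+ replicate 2 or Eo- replicate 2. Its fall in Eo- vs ESC (-0.40 ± 0.16, adjusted p = 0.0409) was lost in 11 alternatives.

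Proteins known to bind the core factors, 15 genes of repressor and chromatin complexes, formed the next list. Against ESC, 5 rose and 3 fell in Eo- and 5 rose and 5 fell in Eo+ cells, while 3 rose and 4 fell between both fractions (Eo+ vs Eo-), and the medians were 0.01, -0.09 and -0.06 on the log2 scale. These counts, 8, 10 and 7 of 15, are near the shares of all loci called (57.3%, 66.7% and 43.4%). Arid3a and Arid3b, DNA-binding proteins of the ARID family, rose in every comparison, Arid3b from 79.2 ± 9.99 to 126 ± 19.2 and 248 ± 43.3 CPM. Rif1, a factor of replication timing, fell from 250 ± 27.1 to 163 ± 18.2 and 103 ± 8.27 CPM (Eo+ vs ESC log2 change -1.27 ± 0.10, adjusted p = 5.94e-08 from limma), and Trim28, a corepressor of zinc finger proteins, fell by 1.07 ± 0.09 in the same comparison. Zfp281, a zinc finger partner of NANOG, was lower in Eo+ than in either other group, by -0.54 ± 0.08 on the log2 scale in Eo+ vs Eo- (adjusted p = 8.94e-05). The listed subunits of NuRD, the deacetylase complex that SALL4 recruits, differed in direction in Eo+ vs ESC. Hdac2 rose by 0.55 ± 0.07 (adjusted p = 9.58e-06), Mta2 by 0.46 ± 0.08 and Mta1 by 0.45 ± 0.07, the last pair counted in loci shared with Eml3 and Crip2. Hdac1 fell by 0.20 ± 0.05 (adjusted p = 0.00439), while Chd4 (0.08 ± 0.06) and Gatad2a (-0.18 ± 0.11) did not pass.

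Naive pluripotency factors fell as a group in Eo- vs ESC, 10 of 10 where 29.4% of all loci fell, with a median log2 change of -3.49, so that Nanog and Sox2 fell by less than this median and Pou5f1, Sall4 and Utf1 did not pass. In Eo+ vs ESC 9 of 10 fell, where 33.8% of all loci did. Klf4, a Krüppel-like factor, fell by 4.45 ± 0.24 in Eo- cells while Tcl1 stood at 59.0 ± 13.9 CPM in ESC and 0.0591 ± 0.0315 CPM in Eo+ libraries. At so low a level the size depends on the method, with a log2 change of Tcl1 of -10.04 ± 0.61 in the counts and -6.70 in the authors' table with 0.5 added to each value. Tbx3 was the exception, lower in Eo- (-4.04 ± 0.49, adjusted p = 1.10e-05 from limma), and higher in Eo+ than in Eo- by 3.46 ± 0.50 (adjusted p = 9.73e-05). Of the formative and primed epiblast genes, 6 of 8 rose in Eo- vs ESC, where 27.9% of all loci rose, among them Otx2 by 3.004 ± 0.24 and Fgf5 by 3.07 ± 0.29, and 1 fell, Etv5 by 0.79 ± 0.11. The rise of Lef1 (0.54 ± 0.22, adjusted p = 0.0468) was called in only 5 of the 12 fits that left out 1 library and in 6 of 9 other alternatives. The de novo methyltransferase Dnmt3b rose from 469 ± 64.8 to 2015 ± 182 CPM in Eo- and stood at 752 ± 201 CPM in Eo+ cells, which was 1.45 ± 0.14 lower on the log2 scale than in Eo- (adjusted p = 3.67e-06).

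**Figure D5:**
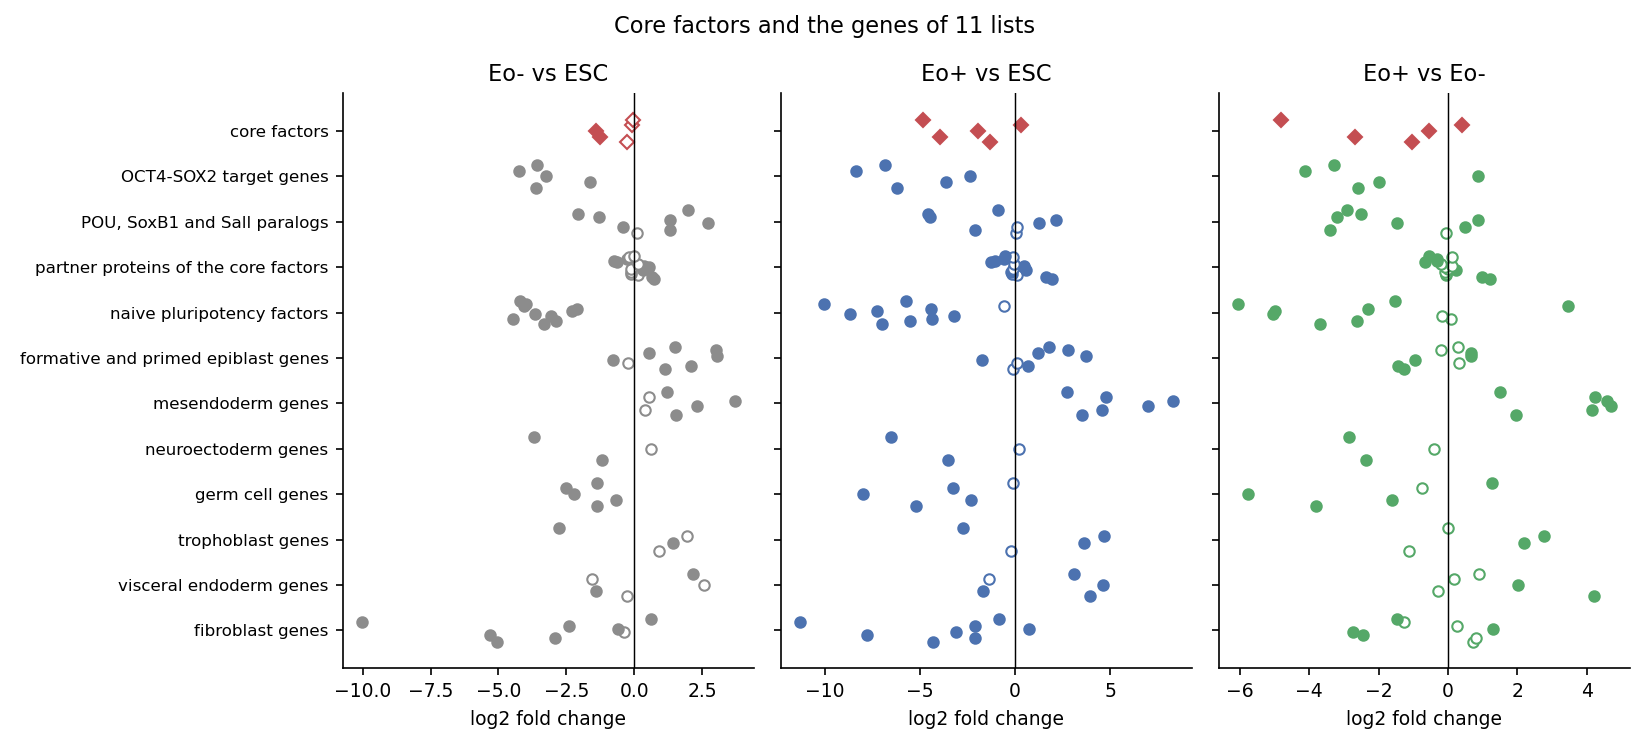
Log2 fold changes (horizontal axes, each panel with its own range) of the 5 core factors, as red diamonds, and of the 77 tested genes of 11 lists, as circles, in 3 comparisons; filled symbols passed an adjusted p of 0.05 in limma. All 10 naive factors lie below 0 in Eo- vs ESC, while the core factors lie between -1.41 and -0.02 there and between -4.82 and 0.42 in Eo+ vs Eo-.

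Marker genes were compared with the labels of the groups. Eomes, the gene behind the sort, was at 46.4 ± 8.89, 136 ± 22.2 and 530 ± 99.3 CPM in ESC, Eo- and Eo+ libraries. It was therefore not absent from the Eomes-negative fraction, where it was higher than in ESC by 1.56 ± 0.17 on the log2 scale (adjusted p = 4.05e-06 from limma). Of 6 mesendoderm genes, 4 were called higher in Eo- vs ESC, where 27.9% of all loci were, and all 6 in Eo+ vs Eo-, where 21.2% were, their sum being 1710 to 2995 CPM in Eo+, 249 to 509 CPM in Eo- and 91.5 to 284 CPM in ESC libraries. Of 3 tested neuroectoderm genes, Pax6 and Hes5 fell in each comparison, where 29.4%, 33.8% and 22.2% of all loci did, and Nes, which made up most of the sum, passed in none (61.8 ± 19.7, 93.2 ± 27.5 and 69.9 ± 17.9 CPM in ESC, Eo- and Eo+). The sums of this list overlapped, at 48.1 to 94.5, 62.9 to 123 and 45.0 to 84.1 CPM. Germ cell genes fell in 5 of 5 cases in Eo- vs ESC, where 29.4% of all loci did, with sums of 68.9 to 78.1 CPM in ESC, 21.6 to 34.4 CPM in Eo- and 15.2 to 24.3 CPM in Eo+ libraries. Trophoblast sums spanned 46.5 to 61.8, 13.4 to 72.7 and 34.5 to 146 CPM in ESC, Eo- and Eo+, and visceral endoderm sums 3.95 to 7.48, 3.36 to 17.4 and 5.86 to 42.7 CPM. In Eo+ vs ESC, where 32.9% of all loci rose and 33.8% fell, 2 of 4 tested trophoblast genes rose (Hand1 and Gata3) and 1 fell (Tfap2c), and 3 of 5 visceral endoderm genes rose (Apoa1, Afp and Sox7) and 1 fell (Amn).

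Most fibroblast genes were lower in both sorted fractions than in ESC, the group grown on feeder cells. Of 8 tested among 9 listed, 6 fell and 1 rose (Thy1, 0.62 ± 0.20) in Eo- cells against ESC. In Eo+ cells against ESC 7 fell and 1 rose (Pdgfrb, 0.71 ± 0.16). Over all loci 29.4% fell and 27.9% rose in Eo- cells, and 33.8% fell and 32.9% rose in Eo+ cells. The sum of the fibroblast genes was 98.1 to 239 CPM in ESC, 29.7 to 40.0 CPM in Eo- and 29.1 to 42.7 CPM in Eo+ libraries. Col1a1 was at 31.6 to 93.6 CPM in ESC and S100a4 at 6.50 to 20.7 CPM, and S100a4 was at 0 to 0.0156 CPM in both sorted fractions, without being at 0 in every library. The part of feeder RNA in the ESC levels of the members was not tested. The sums of Eo- and Eo+ libraries overlapped, but 3 of the 8 genes were called lower in Eo+ than in Eo- cells, Dcn (-2.73 ± 0.46), Col3a1 (-2.46 ± 0.80) and Thy1 (-1.47 ± 0.22), and 1 higher, Pdgfrb (1.30 ± 0.17). Over all loci 43.4% were called in this comparison, 22.2% lower and 21.2% higher, so the number of fibroblast genes called is near that share. With the authors' table and 0.5 added to each value the log2 changes were -0.77 for Dcn and -0.59 for Col3a1, and the call for Col3a1 was lost there and without Eo+ replicate 2 or 6 (range -2.81 to -1.84 without single libraries).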

How the data were processed

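RNA-Seq libraries from ESC, Eo- and Eo+ cells were compared. Per the methods and labels, the authors mapped stranded poly(A) reads to mm10 with STAR, assembled loci with Cufflinks and Cuffmerge 2.2.1 and counted reads with HTSeq 0.6.1 in union mode, setting aside 22.4% to 26.2% of alignments as not unique. The deposited raw counts are not scaled, and the deposited normalized table holds a signal, the counts of each library divided by a constant. No column of another sample was used.

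Loci with a mean FPKM above 0.1 in at least 1 group were tested with limma 3.58.1 (voom, TMM sizes from edgeR 4.0.16, R 4.3.3) over all 12 libraries, with Benjamini-Hochberg adjustment and calls at 0.05. Alternatives included DESeq2 1.42.0. Ratios were tested with SciPy 1.17.1, and the scripts were tested on simulated data. The members and lists were chosen with earlier results of these data known. Named were the members, all targets and paralogs, the 3 nearest profiles per member and, by the rule, the 2 called genes with the largest rise and fall per comparison in each other list, of which some are covered here only by the counts and sums of their list. Genes added after their values were seen were Eomes, Col1a1 and the NuRD genes Hdac1, Hdac2, Mta1, Mta2, Gatad2a and Chd4. The methods describe 4 differentiation sets over the 3 groups, which the replicate numbers are taken to mark. Deviations of same-numbered Eo- and Eo+ libraries correlated at 0.115 to 0.359, and those of ESC libraries with either at -0.06 to 0.18. P-values measure the spread between these libraries.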

Additional observations from a re-analysis of the deposited data

Results flagged for a closer look

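In 4 of the 48 groups of 4 libraries examined, a single library stood far from the other 3, and chance alone gives such a gap in about 5% of groups. Eo+ replicate 5 stood above the other Eo+ libraries for Sox2, at 42.0 CPM against 18.5 to 19.8 CPM, and for Utf1, at 26.5 CPM against 6.49 to 8.37 CPM. Without it the log2 change in Eo+ vs Eo- was -2.96 for Sox2 and -5.28 for Utf1, and both remained called by limma. In ESC replicate 5 the summed level of the OCT4 and SOX2 target genes was lower than in the other ESC libraries, at 1314 CPM against 1633 to 1693 CPM. In Eo- replicate 1 the summed level of the germ cell genes was higher than in the other Eo- libraries, at 34.4 CPM against 21.6 to 22.9 CPM.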

How the results depend on the processing

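Of 420 values of the members under other settings, 397 kept their direction and their side of the threshold. The Eo+ vs Eo- fall of Nanog lost its call with no filter on low values (-0.55), and ran from -0.75 to -0.42 when single libraries were left out. Its difference between the contrasts, 0.86, passed with DESeq2 (0.99), with DESeq2 size factors (0.91), with edgeR (0.94) and with the replicate block (0.87), and ran from 0.66 to 1.01 without single libraries. For Pou5f1 it passed with library totals (-0.87) and the replicate block (-0.75), and ran from -0.96 to -0.53 without single libraries. The replicate block changed no other call of a member. The uncalled change (Utf1: Eo- vs ESC) turned positive with the authors' table (0.00843), library totals (0.0539) and no filter (0.0279), and ran from -0.11 to 0.13 without single libraries. With the exon length of the gene alone, 3 members in ESC, 2 in Eo- and 3 in Eo+ kept their rank by level. With medians in place of means, the difference of the Sall4/Utf1 ratio in Eo+ vs Eo- was 5.70 against 5.24. In an exact permutation test of medians no ratio passed, the smallest p being 0.0571 (adjusted p = 0.0659). Groups without any overlap gave this same p, so the test of medians could not reach the threshold with so few libraries. The cause of these differences was not tested. Depth did not limit the members, whose lowest count was 4139.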
